A study of Schizosaccharomyces pombe with 12 samples.

Results

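Transcript levels of 58 genes of Schizosaccharomyces pombe that encode DNA-binding transcription factors or their direct partners were followed across 4 groups of 3 libraries. The genes are a list of named factors, and all 58 were found among the 6936 genes of the deposited tables. They lie on chromosome I (23 genes), chromosome II (29 genes) and chromosome III (6 genes). The list holds ntu1 and ntu2, the genes deleted in this study. The annotation lists ntu2 as coding for a membrane-tethered factor and ntu1 as coding for a regulatory protein.

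The RNA was poly(A)-selected and came from cells in exponential growth in the rich medium YES at 30 °C. All 4 groups carry the auxotrophic markers leu1-32 and ura4-D18. The group ntu_WT is a wild type for ntu1 and ntu2 of the h+ mating type with ade6-M210. The group ntu1_KO is h+ with ade6-M216 and the deletion ntu1D::kanMX, and ntu2_KO is h+ with ade6-M216 and the deletion ntu2D::kanMX. The group wt_WT is a further wild type, of the h- mating type with ade6-704. Each knockout thus differs from ntu_WT in the ade6 allele and the kanMX cassette as well as in the deleted gene, and these cannot be told apart. The labels give each group 1 strain name, and the same name to both wild types in spite of their genotypes. Nothing in the labels says whether the 3 libraries of a group came from separate cultures, so p-values measure the spread between these libraries, which may be technical.

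A transcription factor binds short DNA sequences near its target genes and raises or lowers their transcription. Many fission yeast factors are held in check at the protein level, by phosphorylation, by export from the nucleus, by a bound metal or by tethering to a membrane, so the transcript of a factor and its activity can move apart. Some factors, such as Ste11, the master regulator of mating and meiosis, are also controlled strongly through their own transcript. Each factor transcript below is therefore set beside the levels of genes known as targets of that factor.

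Library totals were 3177147 to 11782294 estimated counts, with the 3 wt_WT libraries the deepest. Ribosomal RNA made up 0.370% to 0.697% of wt_WT counts and 0.680% to 6.64% elsewhere. The 3 markers of P cells (map2, map3 and mat2-Pc) summed to 45.7 to 50.1 counts per 1e+06 counts (CPM) in ntu_WT, 35.3 to 37.5 in ntu1_KO, 28.0 to 41.8 in ntu2_KO and 17.7 to 21.8 in wt_WT. The 6 markers of M cells summed to 34.9 to 37.0, 38.0 to 50.4, 37.6 to 46.5 and 107.8 to 123.0 CPM in the same order. The P-defining mat2-Pc was at 0 in all wt_WT libraries, and the M-defining mat1-Mc was at 0 in all libraries of both knockouts. In ntu_WT, which is labelled h+, mat1-Mc was at 0 in replicates 1 and 2 and at 1.26 CPM (9 counts) in replicate 3, beside 37.9 to 43.1 CPM in wt_WT.

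Levels between genes were compared on the length-corrected TPM scale (transcripts per 1e+06 transcripts). The mean over 12 libraries was over 100 TPM for 7 of the 58 genes, between 10 and 100 TPM for 42 and under 10 TPM for 9. The median of the 56 genes that passed the count filter was 37.8 TPM, beside 41.5 TPM for all 5899 genes tested. Summed over the list, the factor transcripts held 0.598% to 0.651% of the counts of a library.

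The highest mean belonged to zip1, a bZIP factor of cadmium and sulphur metabolism, at 466 TPM. The next were php3, a subunit of the CCAAT-binding complex, at 261 TPM, fil1, a GATA factor of the amino acid starvation response, at 252 TPM, sap1, an essential DNA-binding protein that also acts in replication, at 234 TPM, and prr1, a response-regulator factor of oxidative stress, at 166 TPM. The rank of php3 depends on length correction, since by CPM it stood 45th of 58 and fil1 stood 1st. At the other end, rsv1 averaged 0.0371 TPM, atf21 0.294 TPM, grt1 2.26 TPM, atf31 2.48 TPM and the meiotic forkhead factor mei4 3.70 TPM. The zinc finger gene rsv1 had 0 to 3 counts per library and the bZIP gene atf21 had 1 to 10, so neither passed the filter and neither was tested. The deleted genes are of middle rank, with ntu2 16th and ntu1 37th of 58 by mean TPM over all libraries, their own knockouts included.

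**Figure D1:**
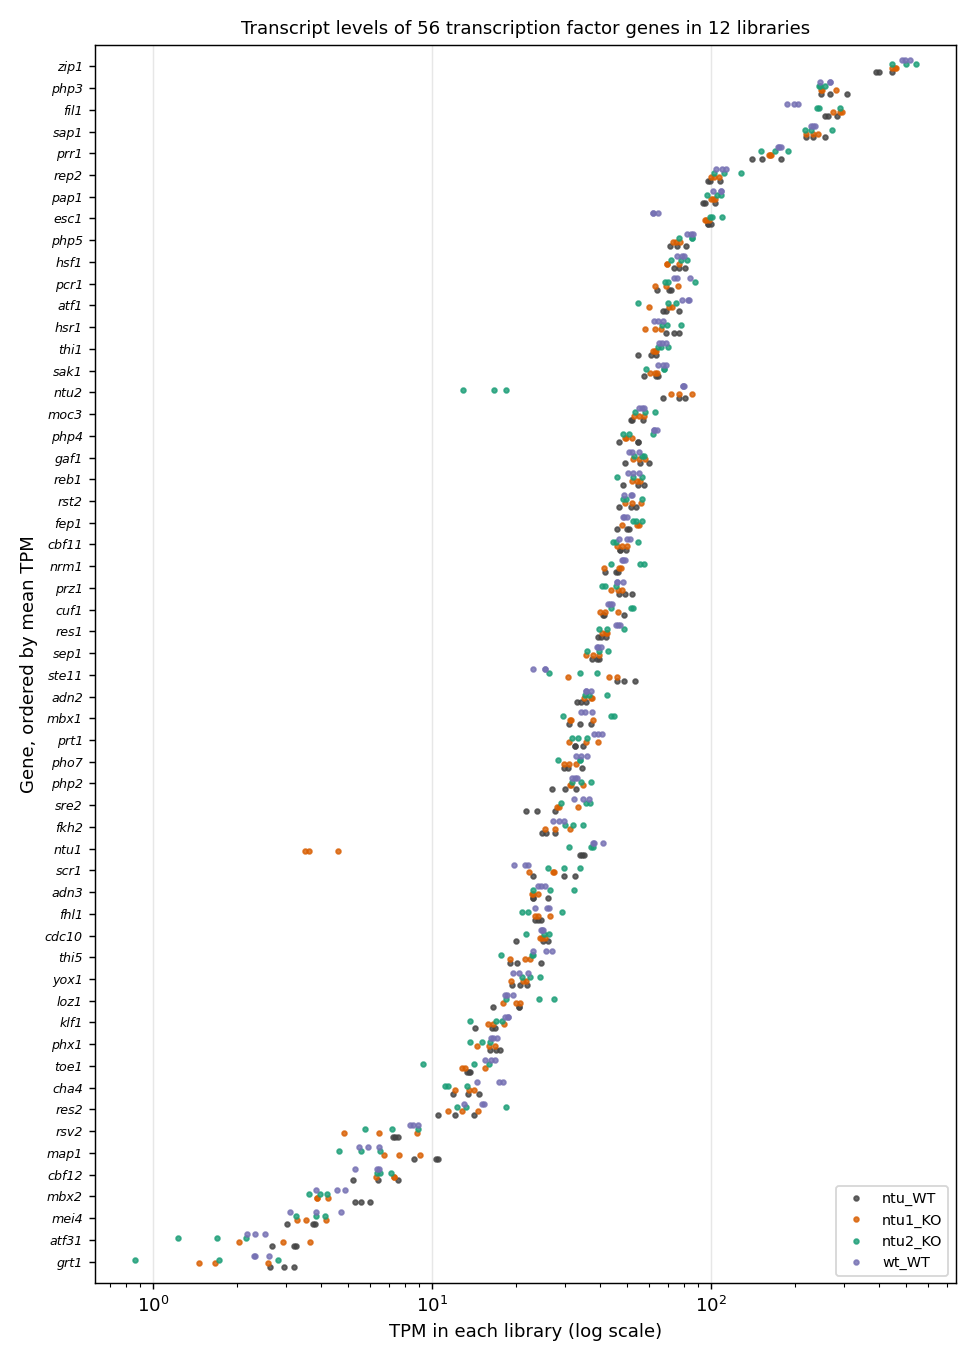
TPM on a log axis (x) of the 56 genes that passed the count filter (y, ordered by the mean over 12 libraries), with 1 point per library coloured by group. Most genes sit in 1 narrow cluster of points across all groups, while ntu1 in ntu1_KO, ntu2 in ntu2_KO, and ste11, esc1 and fil1 in wt_WT stand to the left of the other groups.

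Most of these transcripts varied little across the 4 groups. The range of the 4 group means, on the log2 CPM scale, had a median of 0.20 over the 56 genes, beside 0.19 over all genes tested. That range passed 0.5 for 10 genes and 1 for 3 genes, which were ntu1 at 3.20, ntu2 at 2.30 and ste11 at 1.09. The next widest were atf31 at 0.83 and grt1 at 0.82, both among the lowest genes of the list. The spread within groups, as an SD of log2 CPM, had a median of 0.10 for the list and 0.11 for all genes tested. The group with the highest mean was ntu2_KO for 22 of the 56 genes, ntu_WT for 15, wt_WT for 13 and ntu1_KO for 6.

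A gene was called when its edgeR quasi-likelihood p, adjusted by Benjamini-Hochberg over all genes tested, was under 0.05. For single genes, the alternatives counted below are other tools, normalizations, filters and fits and the leaving out of 1 library, without the stricter call rules (a 2-fold minimum, adjusted p under 0.01). Over all 6 comparisons, 12 of the 56 genes were called at least once and 44 never. Apart from ntu1 and ntu2 these were mbx2, sre2, ste11, map1, esc1, fil1, scr1, hsr1, php4 and fep1. None of the changes of those 10 genes exceeded 1.09 on the log2 scale. The comparisons with ntu_WT share its 3 libraries and the comparisons with wt_WT share those of wt_WT, so calls of 1 gene in several of them are not independent.

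**Figure D2:**
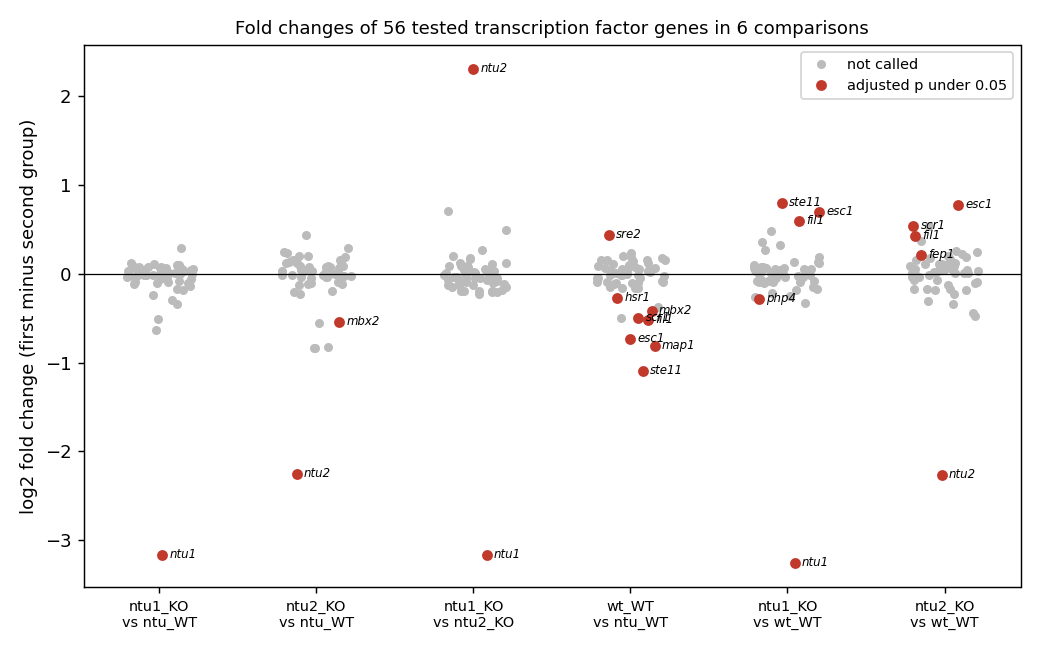
Log2 fold change (y, first minus second group) of the 56 tested genes in each of 6 comparisons (x), with called genes in red and named, and the others in grey and spread sideways at random. Beside the deleted genes, the called genes lie mostly in the 3 comparisons with wt_WT.

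The targeted genes were examined first. The ntu1 transcript stood at 89.9, 92.3 and 97.3 CPM in ntu_WT and at 12.3, 9.23 and 9.69 CPM in ntu1_KO (log2 fold change -3.17 ± 0.11, SE, edgeR adjusted p = 7.52e-12). The ntu2 transcript stood at 231, 223 and 203 CPM in ntu_WT and at 47.1, 52.4 and 37.7 CPM in ntu2_KO (log2 fold change -2.26 ± 0.11, edgeR adjusted p = 4.98e-08). Each gene was far lower in every library of its own knockout and still had reads there. How much of each transcript the deletion leaves was not given in the sources used here.

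Neither deletion came with a call of the other gene. In ntu2_KO the ntu1 transcript stood at 97.9, 97.6 and 84.3 CPM, with a 95% interval of the log2 change against ntu_WT of -0.19 to 0.18. In ntu1_KO the ntu2 transcript stood at 249, 205 and 223 CPM, with an interval of -0.16 to 0.25. Both intervals lie within a change of 1.5-fold in either direction. The gene fkh2, which encodes a forkhead factor of the mitotic gene programme, is the protein-coding neighbour of ntu1 on 1 side. It had 67.2, 72.5 and 68.0 CPM in ntu_WT and 83.2, 66.6 and 73.3 CPM in ntu1_KO, with an interval of -0.09 to 0.28 that overlaps 0. The factor gene prt1, 3 protein-coding genes away from ntu2, had a log2 fold change of -0.01 ± 0.09 in ntu2_KO.

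In ntu1_KO against ntu_WT, edgeR called 1 of the 56 genes, which was ntu1 itself, where 0.74% of all genes tested were called, 0.465% higher and 0.275% lower. The number with an unadjusted p under 0.05 was 4, where 5.89% of all genes had one. The CPM of the groups did not overlap for 5 of the 56 genes, where 13.9% of all genes had no overlap. The median log2 fold change of the list was -0.01. Of the 55 genes not called, 49 had a 95% interval inside 1.5-fold in both directions, and grt1 alone had one that reached beyond 2-fold.

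In ntu2_KO against ntu_WT, edgeR called 2 of the 56 genes, ntu2 and mbx2, both lower, where 0.758% of all genes tested were called, 0.448% higher and 0.31% lower. Here 13 genes had an unadjusted p under 0.05, where 9.06% of all genes had one. The groups did not overlap for 12 of the 56, where 13.3% of all genes had no overlap. The median log2 fold change was 0.00. Of the 54 genes not called, 49 had an interval inside 1.5-fold, while those of atf31, grt1 and map1, all low, reached beyond 2-fold.

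The gene mbx2 encodes a MADS-box factor that drives the flocculin genes, whose cell-wall products make cells stick together. It is scarce, at 4.49 TPM. It had 30.5, 32.9 and 30.3 CPM in ntu_WT, 23.5, 21.0 and 21.5 in ntu1_KO, 22.7, 21.5 and 20.4 in ntu2_KO, and 20.2, 24.3 and 25.8 in wt_WT. All 9 libraries of the other groups lay below all 3 of ntu_WT. The log2 fold change was -0.54 ± 0.12 in ntu2_KO (edgeR adjusted p = 0.0498) and -0.42 ± 0.11 in wt_WT (edgeR adjusted p = 0.0254), both called. In ntu1_KO it was -0.51 ± 0.12 and missed the threshold (edgeR adjusted p = 0.0649). The call appeared in ntu1_KO in 2 of 15 alternatives, the edgeR fits of the compared groups alone and of all 12 libraries, with adjusted p down to 0.0320. The knockouts did not differ from each other beyond their spread, with a log2 difference of 0.03 and an interval of -0.23 to 0.30. The call in ntu2_KO was kept in 6 of 15 alternatives and lost in 9, among them the leaving out of any 1 of ntu_WT replicates 1, 2 and 3 and ntu2_KO replicates 1 and 2, with adjusted p of up to 0.301. The call in wt_WT was lost in 7 of 14, namely the 3 limma fits and the leaving out of ntu_WT replicates 2 or 3 or wt_WT replicates 1 or 2, with adjusted p of up to 0.234.

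The annotated non-coding gene SPNCRNA.1626 overlaps mbx2 on the opposite strand. The mean CPM of SPNCRNA.1626 (reads, not scaled by length) was 256% of that of mbx2. It had 32.7, 33.4 and 34.2 CPM in ntu_WT, 56.3, 51.7 and 48.2 in ntu1_KO, 73.0, 55.8 and 57.1 in ntu2_KO, and 100, 109 and 103 in wt_WT. Its order is the reverse of that of mbx2 in so far as ntu_WT is lowest, with no overlap between ntu_WT and any other group. The log2 fold changes against ntu_WT were 0.64 ± 0.11 in ntu1_KO (edgeR adjusted p = 0.00484), 0.87 ± 0.11 in ntu2_KO (0.000281) and 1.64 ± 0.09 in wt_WT (6.15e-10). The call in ntu1_KO was lost in 4 of 15 alternatives, the 3 limma fits and without ntu_WT replicate 2, with adjusted p of up to 0.173. The libraries came from a stranded kit, but the use of strand in counting was not given in the sources used here, and the part of this transcript in the mbx2 values was not tested.

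Of 9 flocculation genes, 3 fell in ntu1_KO and 2 in ntu2_KO, and 6 and 7 were not called. Of all genes tested, 0.275% were called lower in ntu1_KO and 0.31% in ntu2_KO. The flocculin gene pfl8 had 92.1, 106 and 104 CPM in ntu_WT, 39.4, 34.4 and 36.9 in ntu1_KO, with 39.5, 40.3 and 26.7 in ntu2_KO. Its log2 fold changes were -1.45 ± 0.12 (edgeR adjusted p = 3.58e-06) and -1.52 ± 0.13 (2.93e-06). Both knockouts lay wholly below ntu_WT. The flocculin gene pfl9 fell by 1.53 in ntu1_KO (edgeR adjusted p = 0.00144) and by 1.37 in ntu2_KO (0.00506) on the log2 scale. The ntu2_KO call of pfl9 was lost without ntu_WT replicate 2. In ntu1_KO pfl3 also fell, by 0.73 (edgeR adjusted p = 0.0314), a call that no set of 5 of the 6 libraries kept, with adjusted p of up to 0.205. For gsf2, the main flocculin, the log2 fold changes were -0.38 ± 0.09 and -0.22 ± 0.09, and neither was called. Both pfl8 and pfl9 were as low in wt_WT as in the knockouts, at log2 fold changes of -1.58 ± 0.11 and -1.63 ± 0.22 against ntu_WT (edgeR adjusted p = 6.14e-09 and 5.96e-05). There pfl2 was higher, by 0.31 (edgeR adjusted p = 0.00338), and the other 6 were not called. The median over the 9 was -0.19, -0.09 and -0.07 in ntu1_KO, ntu2_KO and wt_WT, beside 0.00 for all genes in each.

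**Figure D3:**
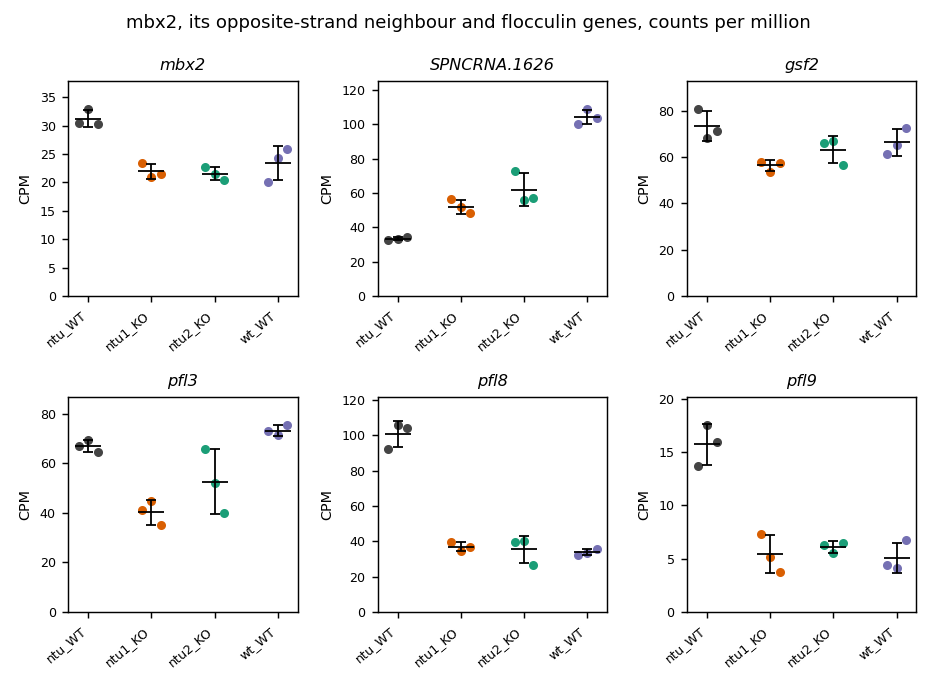
CPM (y, from 0) in each library by group (x) for mbx2, the opposite-strand SPNCRNA.1626, and the flocculation genes gsf2, pfl3, pfl8 and pfl9, with points for libraries, a bar for the mean and whiskers for the SD of 3. For mbx2, pfl8 and pfl9 the 3 libraries of ntu_WT lie above all others, and for SPNCRNA.1626 below all others.

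The other factors tied to adhesion were not called in any comparison, where 0.103% to 8.24% of all genes tested were called. These factors are cbf11 and cbf12, of the CSL family, and adn2 and adn3, whose loss impairs invasive growth and adhesion. Their log2 fold changes against ntu_WT ran from -0.06 to 0.11 in ntu1_KO and from -0.03 to 0.13 in ntu2_KO.

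The sre2 gene encodes a membrane-bound homologue of the sterol regulatory element-binding proteins and is, beside ntu2, a membrane-tethered member of the list. It had 95.8, 83.1 and 79.0 CPM in ntu_WT, 117, 97.1 and 100 in ntu1_KO, 121, 126 and 103 in ntu2_KO, and 115, 110 and 123 in wt_WT. Every library outside ntu_WT lay above all of ntu_WT. The log2 fold change was 0.44 ± 0.09 in wt_WT, which was called (edgeR adjusted p = 0.00354) and kept in all 14 alternatives. It was 0.44 ± 0.10 in ntu2_KO and 0.29 ± 0.10 in ntu1_KO, which were not called (edgeR adjusted p = 0.0528 and 0.441). The call in ntu2_KO appeared in 6 of 15 alternatives, among them DESeq2, and without ntu2_KO replicate 3 its adjusted p was 0.00419. The protein-coding gene SPBC354.04 overlaps sre2 on the opposite strand, and its mean CPM (not scaled by length) was 99.7% of that of sre2. For SPBC354.04 the log2 fold changes against ntu_WT were -0.02, -0.01 and -0.08 in ntu1_KO, ntu2_KO and wt_WT.

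The factors of sexual differentiation and glucose signalling form a group of 8: ste11, mei4, map1, esc1, rst2, scr1, moc3 and sak1. None was called in either knockout against ntu_WT, where 0.74% (ntu1_KO) and 0.758% (ntu2_KO) of all genes were, and 4 were lower in wt_WT, where 4.19% of all genes were. The ste11 transcript had 116, 105 and 103 CPM in ntu_WT, 67.7, 93.7 and 103 in ntu1_KO, 55.6, 72.6 and 87.2 in ntu2_KO, and 52.7, 47.3 and 51.5 in wt_WT. The wild types were well apart, and the knockouts spread between them, with libraries of 1 knockout differing by over 1.5-fold. The log2 fold change was -1.09 ± 0.16 in wt_WT (edgeR adjusted p = 0.00177), kept in all 14 alternatives. Against ntu_WT it was -0.29 ± 0.17 in ntu1_KO, with an interval of -0.69 to 0.11, and -0.56 ± 0.18 in ntu2_KO, with an interval of -0.97 to -0.15 (edgeR adjusted p = 0.941 and 0.324). DESeq2 called the latter (adjusted p = 0.0230).

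Of the 7 tested genes known to act downstream of Ste11 and Mei4, none was called in either knockout against ntu_WT, and 3 fell and 1 rose in wt_WT. In wt_WT 4.19% of all genes tested were called lower and 4.05% higher. The RNA-binding regulator of meiosis mei2 had 80.3, 68.9 and 65.9 CPM in ntu_WT, 60.0, 71.7 and 75.4 in ntu1_KO, 29.1, 44.8 and 80.1 in ntu2_KO and 27.5, 28.5 and 31.2 in wt_WT. In ntu2_KO the libraries ranked for mei2 as they did for ste11, with replicate 1 lowest and replicate 3 highest. In wt_WT mei2 fell by 1.30 on the log2 scale (edgeR adjusted p = 0.0217), but the adjusted p ran from 0.0594 to 0.0855 over the fits that leave out 1 library. The mating MAP kinase gene spk1 fell by 0.83 (edgeR adjusted p = 8.93e-05) and the pheromone-signalling G protein gene gpa1 by 0.41 (0.00757). The gpa1 call was lost in the 3 limma fits and without wt_WT replicate 1, with adjusted p of up to 0.0662. In ntu2_KO against ntu_WT spk1 and gpa1 had log2 fold changes of -0.49 and -0.27 (edgeR adjusted p = 0.1285 and 0.348), while 4 of the 7 genes were above 0. Both were called there without ntu2_KO replicate 3 (adjusted p = 0.00358 and 0.0496), and in no other alternative. The gene ste6 of the same list rose by 0.57 in wt_WT against ntu_WT (edgeR adjusted p = 0.0475). That call was lost in 9 of 14 alternatives, among them DESeq2 and the leaving out of any 1 of 5 libraries, with adjusted p of up to 0.228.

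The map1 gene, a MADS-box activator of P-cell genes, had 14.1, 11.5 and 14.4 CPM in ntu_WT, 10.3, 11.99 and 9.05 in ntu1_KO, 7.26, 6.16 and 9.01 in ntu2_KO, and 8.20, 6.98 and 7.47 in wt_WT. Both ntu2_KO and wt_WT lay below every ntu_WT library. The log2 fold change was -0.82 ± 0.17 in wt_WT (edgeR adjusted p = 0.00561), kept in all 14 alternatives. In ntu2_KO it was -0.83 ± 0.21 and not called (edgeR adjusted p = 0.102), with an interval of -1.26 to -0.39. The call appeared there in 2 of 15 alternatives, with all 12 libraries in the fit and without ntu2_KO replicate 3 (edgeR adjusted p = 0.0245 in the latter). The P-cell gene map3, a pheromone receptor gene, had log2 fold changes of -0.26, -0.40 and -0.88 in ntu1_KO, ntu2_KO and wt_WT, of which the last was called (edgeR adjusted p = 0.000133). A call of map3 in ntu2_KO appeared without ntu2_KO replicate 3 (adjusted p = 0.042). Since these are bulk samples, fewer cells that express a gene and less RNA per cell cannot be told apart.

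The basic helix-loop-helix gene esc1 separated wt_WT from the rest. It had 185, 190 and 191 CPM in ntu_WT, 182, 179 and 190 in ntu1_KO, 182, 204 and 195 in ntu2_KO, and 112, 113 and 115 in wt_WT. The 3 h+ groups overlapped one another, and every wt_WT library lay far below them. The log2 fold change of wt_WT was -0.73 ± 0.05 against ntu_WT (edgeR adjusted p = 1.11e-08). It was higher by 0.69 ± 0.05 in ntu1_KO and by 0.78 ± 0.05 in ntu2_KO than in wt_WT (edgeR adjusted p = 7.41e-08 and 1.59e-08). The gene pso2 overlaps esc1 on the opposite strand, at a mean CPM (not scaled by length) of 33.1% of that of esc1. For pso2 the log2 fold change was 0.00 in wt_WT.

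The carbon catabolite repressor gene scr1 had 79.6, 73.4 and 58.5 CPM in ntu_WT, 53.6, 65.9 and 67.4 in ntu1_KO, 69.8, 81.1 and 64.8 in ntu2_KO, and 46.3, 52.3 and 50.1 in wt_WT. Its wt_WT libraries were below every library of the other groups. The wt_WT level differed from that of ntu_WT by -0.50 ± 0.11 on the log2 scale (edgeR adjusted p = 0.0102), and ntu2_KO stood above wt_WT by 0.54 ± 0.12 (0.0139). The first difference did not pass without ntu_WT replicate 2 or wt_WT replicate 1, and the second without ntu2_KO replicate 2 or wt_WT replicates 1 or 3, with adjusted p of up to 0.0569 and 0.0735, and neither passed in the 3 limma fits. Of 4 glucose-repressed genes, none was called in the knockouts against ntu_WT. In wt_WT against ntu_WT the hexose transporter gene ght5 alone was called, at -1.44 ± 0.22 on the log2 scale (edgeR adjusted p = 0.0055). The median over the 4 was -0.75, -0.99 and -1.65 in ntu1_KO, ntu2_KO and wt_WT, beside 0.00 for all genes in each. In that order 1, 0 and 0 of the 4 were above 0. An unadjusted p under 0.05 was found for 0, 1 and 3 of them. The zinc finger activator rst2, which acts on the same genes, had a log2 fold change of -0.08 ± 0.07 in wt_WT.

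**Figure D4:**
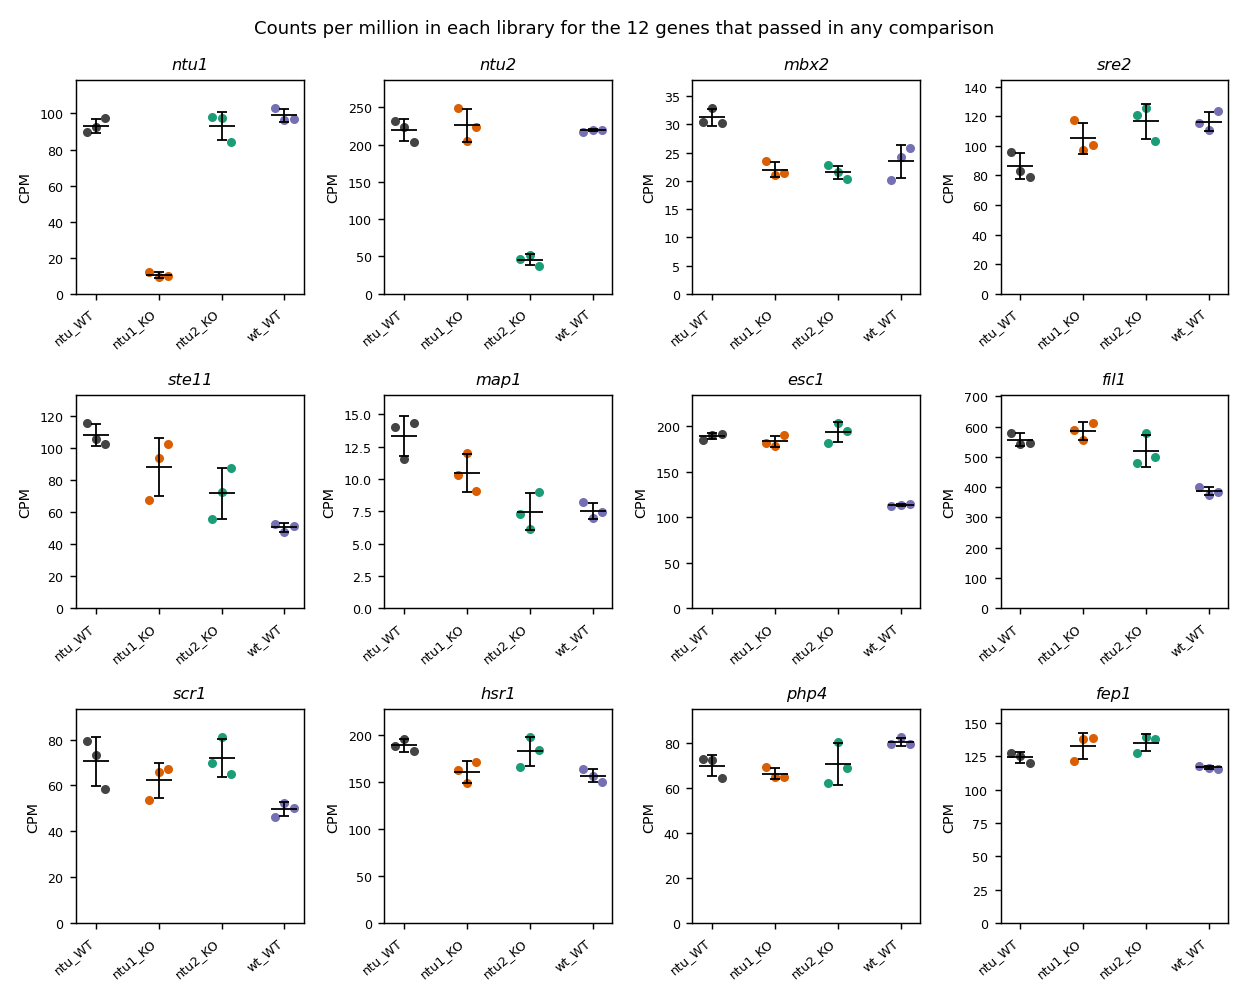
CPM (y, from 0) in each library by group (x) for the 12 factor genes called in any comparison, with points for libraries, a bar for the mean and whiskers for the SD of 3. For esc1 and fil1 the wt_WT libraries lie below all others, while for mbx2 and sre2 the ntu_WT libraries stand apart.

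Between the wild types as a whole, edgeR called 8 of the 56 genes in wt_WT against ntu_WT, 1 higher (sre2) and 7 lower (ste11, esc1, scr1, mbx2, map1, fil1 and hsr1). Of all genes tested, 8.24% were called, 4.05% higher and 4.19% lower. The groups did not overlap for 20 of the 56 genes, where 35.3% of all genes had no overlap, and 13 had an unadjusted p under 0.05, where 23.3% had one. With a 2-fold minimum ste11 alone was left, where 1.03% of all genes were. The median log2 fold change of the list was -0.01. Of the 48 genes not called, 46 had an interval inside 1.5-fold and all 48 inside 2-fold. Mating type, the ade6 allele, library depth and the share of ribosomal RNA differ together between these groups and cannot be told apart.

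The GATA factor gene fil1 was the highest of the list by CPM, with 581, 542 and 546 CPM in ntu_WT, 589, 554 and 614 in ntu1_KO, 480, 579 and 499 in ntu2_KO, and 402, 375 and 385 in wt_WT. As with esc1, wt_WT lay below every other library. The log2 fold change was -0.52 ± 0.06 against ntu_WT (edgeR adjusted p = 2.61e-05), and the knockouts stood above wt_WT by 0.60 ± 0.06 and 0.43 ± 0.06 (8.33e-06 and 0.000383). The calls of esc1 and fil1 were kept in all 14 alternatives of each of the 3 comparisons with wt_WT, while all of these changes are under 2-fold.

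The hydrogen peroxide response gene hsr1 had 188, 196 and 182 CPM in ntu_WT, 163, 148 and 171 in ntu1_KO, 166, 197 and 183 in ntu2_KO, and 163, 156 and 149 in wt_WT. It fell by 0.27 in wt_WT on the log2 scale (edgeR adjusted p = 0.0121), a call lost without ntu_WT replicate 2 or wt_WT replicates 2 or 3, with adjusted p of up to 0.0768, and in the 3 limma fits. In ntu1_KO its libraries also lay below those of ntu_WT, at a log2 fold change of -0.23 ± 0.07 that was not called (edgeR adjusted p = 0.294).

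Against wt_WT, edgeR called 5 of the 56 genes in ntu1_KO, with ntu1 and php4 lower and ste11, esc1 and fil1 higher, where 5.87% of all genes tested were called, 2.71% higher and 3.15% lower. It also called 5 in ntu2_KO, with ntu2 lower and esc1, scr1, fep1 and fil1 higher, where 3.78% of all genes were called, 2.24% higher and 1.54% lower. An unadjusted p under 0.05 was found for 9 and 16 of the 56, where 20.1% and 16.8% of all genes had one. The groups did not overlap for 18 and 19 genes, where 32.2% and 21.5% of all genes had no overlap. The ste11 difference of ntu1_KO was 0.80 ± 0.16 (edgeR adjusted p = 0.0169), a call lost without ntu1_KO replicates 2 or 3 or any 1 wt_WT library, with adjusted p of up to 0.0800.

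The calls of php4 and fep1 concern the regulators of iron use. The php4 product represses iron-using genes when iron is short, and the GATA factor Fep1 represses iron uptake when iron is plentiful. The php4 transcript had 69.1, 64.7 and 65.1 CPM in ntu1_KO and 79.3, 82.6 and 79.4 in wt_WT, a log2 difference of -0.28 ± 0.08 (edgeR adjusted p = 0.0438). The fep1 transcript had 128, 140 and 138 CPM in ntu2_KO and 118, 116 and 116 in wt_WT, a log2 difference of 0.22 ± 0.06 (edgeR adjusted p = 0.0496). Neither pair of groups overlapped, and both differences are small. They were kept in 4 and 3 of 14 alternatives. Leaving out any 1 of the 6 libraries lost the php4 call, with adjusted p of 0.0541 to 0.158. The fep1 call was lost without ntu2_KO replicates 2 or 3 or any 1 wt_WT library, with adjusted p of up to 0.163.

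In ntu1_KO against ntu2_KO, edgeR called 2 of the 56 genes, ntu1 (lower) and ntu2 (higher), where 0.103% of all genes tested were called, 0.0344% higher and 0.0689% lower in ntu1_KO. The number with an unadjusted p under 0.05 was 7, where 6.66% of all genes had one. The groups did not overlap for 4 genes, where 10.3% of all genes had no overlap. Of the 54 genes not called, 50 had an interval inside 1.5-fold, and that of atf31 reached beyond 2-fold. The largest difference among those 54 was that of atf31, at 0.70 ± 0.30 (edgeR adjusted p = 0.709), with 6.23, 4.22 and 7.79 CPM in ntu1_KO and 2.53, 3.50 and 4.59 in ntu2_KO.

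The stress factors were not called in either knockout against ntu_WT, where 0.74% (ntu1_KO) and 0.758% (ntu2_KO) of all genes tested were. Atf1 and Pcr1 form a bZIP pair downstream of the MAP kinase Sty1, Pap1 and Prr1 act in oxidative stress, and Hsf1 drives the heat shock genes. The log2 fold changes of atf1, pcr1, pap1, prr1 and hsf1 ran from -0.11 (hsf1) to 0.05 (pap1) in ntu1_KO and from -0.11 (atf1) to 0.13 (pcr1) in ntu2_KO. For the stress factors rsv2 and klf1 they were -0.18 and 0.08 in ntu1_KO and -0.03 and -0.02 in ntu2_KO. For atf31, whose ntu2_KO libraries of 2.53, 3.50 and 4.59 CPM lay below the 5.59, 6.90 and 7.12 of ntu_WT, the log2 fold change there was -0.84 ± 0.30 (edgeR adjusted p = 0.319). Of 9 Atf1 and Pcr1 targets, 8 Pap1 and Prr1 targets and 7 heat shock genes, none was called in either knockout against ntu_WT.

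In wt_WT against ntu_WT, pap1 and prr1 had intervals of -0.06 to 0.16 and -0.07 to 0.21, while 3 of their 8 targets fell and 5 were not called. Of all genes tested, 4.19% were called lower there. The superoxide dismutase gene sod1 had 1427, 1392 and 1490 CPM in ntu_WT and 518, 542 and 550 in wt_WT (log2 fold change -1.42 ± 0.15, edgeR adjusted p = 0.000423). The peroxiredoxin gene tpx1 fell by 0.23 (edgeR adjusted p = 0.0144) and the thioredoxin reductase gene trr1 by 0.18 (0.0356). These calls were lost in 6 and 8 of 14 alternatives, the 3 limma fits and the leaving out of any 1 of 3 libraries for tpx1 (ntu_WT replicate 1, wt_WT replicates 1 and 3) and of any but ntu_WT replicate 2 for trr1, with adjusted p of up to 0.155 and 0.374. The sod1 call was kept in all 14. Of the 8 kinases, phosphatases and partners of the stress MAP kinase pathway, the MAP kinase kinase gene wis1 fell by 0.42 (edgeR adjusted p = 6.52e-05) and 7 were not called.

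The 10 cell cycle factors were not called in any of the 6 comparisons, where 0.103% to 8.24% of all genes tested were called. Cdc10, Res1 and Res2 make up MBF, which switches on the genes of DNA replication, with Rep2 as coactivator and Yox1 and Nrm1 as repressors. Sep1, Fkh2 and the MADS-box protein Mbx1 act on genes of mitosis and cell separation, and Fhl1 is a further forkhead factor. In ntu1_KO their log2 fold changes ran from -0.05 (sep1) to 0.10 (fkh2), with 7 of 10 above 0. In ntu2_KO they ran from -0.03 (fhl1) to 0.29 (fkh2), with 9 of 10 above 0 and a median of 0.11, beside 0.00 for all genes tested. The fkh2 transcript had 82.1, 90.6 and 80.8 CPM in ntu2_KO, all above the 67.2 to 72.5 of ntu_WT, and was not called (edgeR adjusted p = 0.209). Without ntu2_KO replicate 3, mbx1 and nrm1 were called against ntu_WT and against wt_WT.

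Of 9 MBF targets in ntu2_KO against ntu_WT, 1 rose and 8 were not called, with 8 of 9 above 0 and a median log2 fold change of 0.25. Of all genes tested, 0.448% were called higher there. The replication licensing gene cdt1 had 43.7, 32.5 and 35.0 CPM in ntu_WT and 58.8, 57.4 and 49.1 in ntu2_KO, a rise of 0.57 ± 0.12 (edgeR adjusted p = 0.0307). That call was lost without ntu_WT replicates 2 or 3 or ntu2_KO replicates 1 or 2, with adjusted p of up to 0.269, and in the 3 limma fits and the fit of the compared groups alone. Of 10 targets of the forkhead factors and Mbx1, none was called, 10 of 10 were above 0 and the median was 0.22. Against wt_WT, 2.24% of all genes tested were called higher in ntu2_KO. Of those 10 targets, 3 were higher there, namely adg2, cdc15 and slp1, by 0.48, 0.29 and 0.29 (edgeR adjusted p = 0.0225, 0.0176 and 0.0229). These calls were lost in 8, 7 and 7 of 14 alternatives. Each was lost in the 3 limma fits and without ntu2_KO replicate 2 or wt_WT replicates 1 or 2, adg2 also without ntu2_KO replicate 1 and under the replicate block, and cdc15 and slp1 also without wt_WT replicate 3, with adjusted p of up to 0.0887, 0.144 and 0.211. In ntu1_KO against ntu_WT none of either list was called, 9 of 9 MBF targets and 10 of 10 forkhead targets were above 0, and the medians were 0.11 and 0.05. In wt_WT against ntu_WT none was called either, with 8 of 9 (median 0.14) and 4 of 10 (median -0.05) above 0. Values mostly above 0 were thus also seen for both lists in ntu1_KO, and for the MBF targets alone in wt_WT. These comparisons share the ntu_WT libraries and the genes of a list can vary together, so the signs are not independent.

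The factors of metal and nutrient use were not called against ntu_WT in any group, apart from fil1 in wt_WT. Of all genes tested, 0.74% were called in ntu1_KO, 0.758% in ntu2_KO and 8.24% in wt_WT. The CCAAT-binding subunits php2, php3 and php5 had log2 fold changes of 0.04, -0.16 and 0.05 in wt_WT against ntu_WT. For fep1 and php4 they were -0.09 ± 0.06 and 0.20 ± 0.08 (edgeR adjusted p = 0.37 and 0.116). Of 11 tested genes of iron uptake and use, 5 rose and 1 fell there, where 4.05% of all genes tested were called higher and 4.19% lower. The ferric reductase gene frp1 had 16.9, 24.4 and 24.4 CPM in ntu_WT and 57.1, 68.3 and 89.2 in wt_WT, a rise of 1.69 ± 0.35 (edgeR adjusted p = 0.0216). The siderophore synthesis gene sib1 rose by 0.31 (edgeR adjusted p = 0.00357) and sib2 by 0.42 (0.0169). The frp1 call was lost in 6 of 14 alternatives, under the replicate block and without any 1 library other than wt_WT replicate 1, with adjusted p of up to 0.0743. The sib1 call was lost in the 3 limma fits, and that of sib2 without ntu_WT replicates 2 or 3 or wt_WT replicate 3, with adjusted p of up to 0.0593 and 0.117. The siderophore transporter gene str1 (0.67, edgeR adjusted p = 0.0488) and the succinate dehydrogenase gene sdh2 (-0.17, 0.0465) lost their calls in 9 and 11 of 14 alternatives, among them the leaving out of any 1 of the 6 libraries, with adjusted p of up to 0.154 and 0.525. None of the 11 was called in either knockout against ntu_WT. The frp1 libraries of ntu2_KO had 50.2, 58.9 and 21.1 CPM, 0.96 above ntu_WT on the log2 scale, for which edgeR gave an adjusted p of 0.512. Of 15 alternatives, 1 called this difference, that without ntu2_KO replicate 3 (adjusted p = 0.000451). The str1 change in ntu1_KO was -0.60, for which edgeR gave an adjusted p of 0.57. It was called in 2 of 15 alternatives, DESeq2 and the fit of the compared groups alone.

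The copper factor gene cuf1 had 69.3, 57.7 and 60.4 CPM in ntu_WT and 59.3, 57.5 and 58.5 in wt_WT, with an interval of the log2 fold change of -0.26 to 0.07. Of the 5 copper and zinc genes, 3 rose in wt_WT, where 4.05% of all genes tested were called higher, and 2 were not called. The copper transporter genes ctr4, ctr5 and ctr6 rose by 1.14 ± 0.24, 1.28 ± 0.22 and 0.41 ± 0.07 (edgeR adjusted p = 0.0248, 0.0109 and 0.000782). Leaving out any 1 of the 6 libraries lost the ctr4 call, with adjusted p of up to 0.0968. The zinc repressor gene loz1 had an interval of -0.34 to 0.11.

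The phosphate factor gene pho7 had 95.7, 85.4 and 85.6 CPM in ntu_WT, 86.2, 82.0 and 91.0 in ntu1_KO, 92.2, 92.6 and 80.3 in ntu2_KO and 87.1, 93.4 and 97.1 in wt_WT. All 4 groups overlapped. Its 3 targets, the acid phosphatase gene pho1, the phosphate transporter gene pho84 and the glycerophosphodiester transporter gene tgp1, all fell in wt_WT against ntu_WT, by 1.41, 1.01 and 0.57 (edgeR adjusted p = 4.29e-05, 2.28e-09 and 0.0245). In that comparison 4.19% of all genes tested were called lower. The calls of pho1 and pho84 were kept in all 14 alternatives, while that of tgp1 was lost in 7, the 3 limma fits and without ntu_WT replicates 1 or 2 or wt_WT replicates 1 or 2, with adjusted p of up to 0.124. In ntu1_KO pho84 fell by 0.45 ± 0.07 (edgeR adjusted p = 0.0015, and 0.0533 with limma without a filter). There pho1 and tgp1 were not called, at log2 fold changes of -0.51 and -0.41 (edgeR adjusted p = 0.232 and 0.75). A call of pho1 appeared in 2 of 15 alternatives, DESeq2 and the fit of the compared groups alone. The groups did not overlap for all 3 targets, where 13.9% of all genes had no overlap. In ntu2_KO none of the 3 was called.

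Of the remaining nutrient factors, the nitrogen-related GATA gene gaf1, the thiamine genes thi1 and thi5 and the calcineurin-responsive gene prz1 were not called. The prz1 transcript had 132, 126 and 124 CPM in ntu_WT and 103, 115 and 106 in ntu2_KO, which do not overlap, at a log2 change of -0.23 ± 0.07 (edgeR adjusted p = 0.201). Of the 3 calcium genes, pmr1, a calcium and manganese pump of the Golgi, fell in ntu2_KO by 0.27 ± 0.06 (edgeR adjusted p = 0.0493), a call kept in 6 of 15 alternatives and lost without any 1 of ntu_WT replicates 1, 2 and 3 or ntu2_KO replicates 1 and 2, with adjusted p of up to 0.269. In wt_WT pmr1 and ncs1 fell, by 0.41 and 0.34 (edgeR adjusted p = 3.99e-05 and 0.0138), and the ncs1 call was lost in 5 of 14 alternatives, the 3 limma fits and without wt_WT replicates 2 or 3, with adjusted p of up to 0.147. Of 5 tested thiamine genes, thi4 rose in wt_WT by 0.41 (edgeR adjusted p = 0.00223) and none was called in the knockouts against ntu_WT. Of 4 nitrogen starvation genes, the peptide transporter gene isp4 fell in ntu1_KO, ntu2_KO and wt_WT, by 1.57, 1.35 and 1.64 (edgeR adjusted p = 1.44e-07, 1.43e-06 and 2.28e-09), beside gaf1 at -0.01, -0.02 and -0.14. In wt_WT isp7 rose by 0.40 (edgeR adjusted p = 0.003).

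The most abundant gene of the list, zip1, had 464, 421 and 423 CPM in ntu_WT, 484, 458 and 478 in ntu1_KO, 506, 555 and 473 in ntu2_KO and 477, 500 and 510 in wt_WT. Both ntu2_KO and wt_WT lay above every ntu_WT library, at log2 fold changes of 0.23 ± 0.07 and 0.19 ± 0.06 that were not called (edgeR adjusted p = 0.171 and 0.0568). A call in wt_WT appeared in 5 of 14 alternatives, the 3 limma fits, the fit of the compared groups alone and without ntu_WT replicate 1. In ntu2_KO 1 of 15 gave a call, that without ntu2_KO replicate 3. The remaining 7 factor genes, toe1, phx1, cha4, grt1, prt1, reb1 and sap1, were not called in any comparison, where 0.103% to 8.24% of all genes tested were. The lowest of these 7, grt1, had 8.13, 10.1 and 9.63 CPM in ntu_WT, 8.19, 5.14 and 4.63 in ntu1_KO, with 8.53, 5.33 and 2.72 in ntu2_KO. At these levels its intervals ran from -1.30 to 0.03 and from -1.53 to -0.14, so a change of 2-fold was within both.

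**Figure D5:**
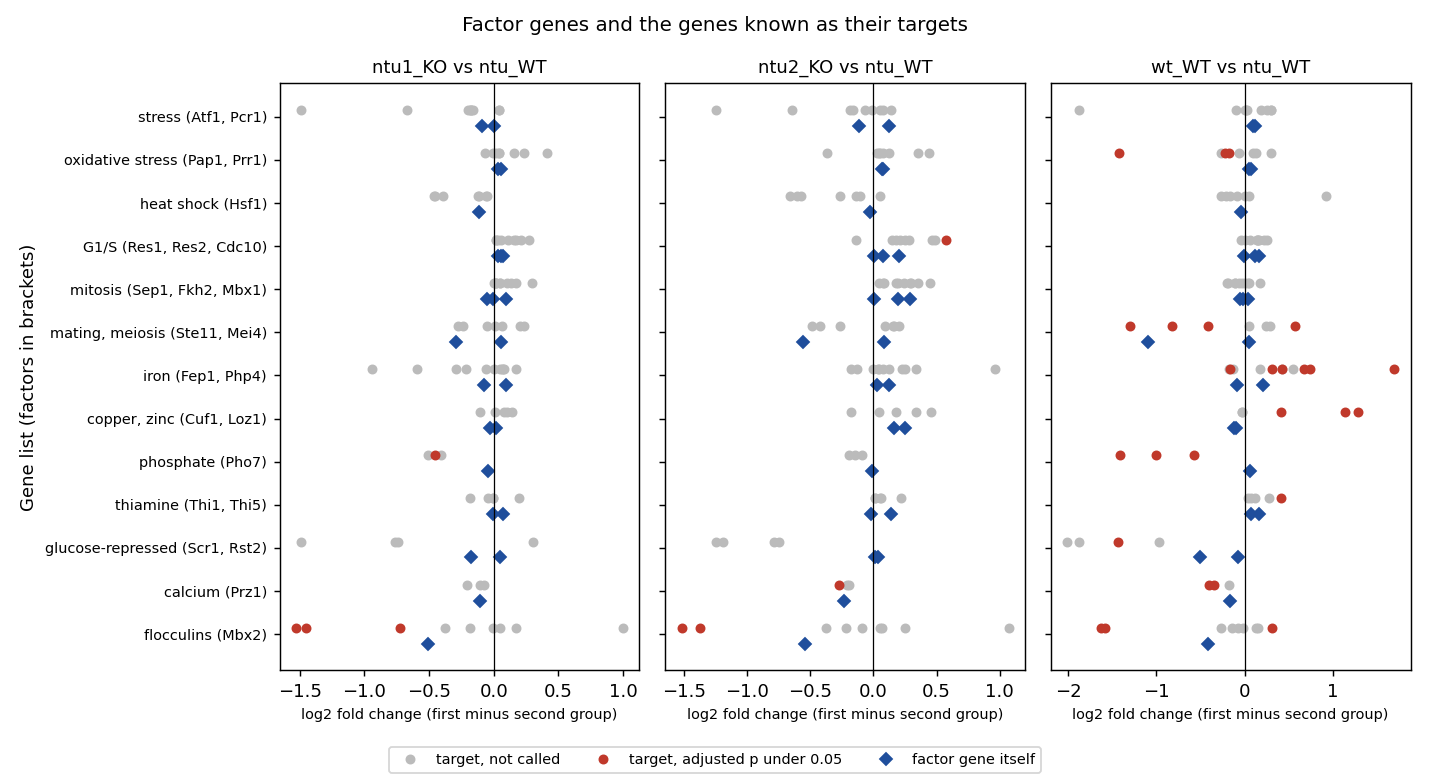
Log2 fold change (x) against ntu_WT in ntu1_KO, ntu2_KO and wt_WT for 13 lists of known targets (y), with blue diamonds for the factor genes named in brackets, red points for called targets and grey points for targets not called. In wt_WT the called copper and zinc targets lie at 0.41 to 1.28 and the called phosphate targets at -1.41 to -0.57, while the diamonds of cuf1 and pho7 have intervals that include 0. In the list that goes with Ste11, 3 called targets lie below 0, as ste11 does, and 1 above.

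Outside the list, 13 further transcription factor genes and the 3 corepressor genes tup11, tup12 and ssn6 were examined with the same fit. None was called in ntu1_KO, ntu2_KO or wt_WT against ntu_WT, where 0.74%, 0.758% and 8.24% of all genes tested were. Against wt_WT, ldb1 was higher and cbh2 lower in ntu2_KO, by log2 differences of 0.38 and -0.35 (edgeR adjusted p = 0.0139 and 0.0231). Both calls were lost without ntu2_KO replicate 2 or wt_WT replicates 2 or 3, that of ldb1 also in the 3 limma fits and that of cbh2 in the fit of the compared groups alone, with adjusted p of up to 0.16 and 0.13.

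Overlap with other genes bears on how the counts can be read. In the ASM294v3 annotation, 53 of the 58 genes overlap an annotated gene on the opposite strand and 6 overlap one on the same strand. Of the genes annotated opposite ntu2, 1 was matched in the deposited tables, mrl1, whose mean CPM (reads, not scaled by length) was 42.0% of that of ntu2. Its log2 fold change in ntu2_KO against ntu_WT was -0.04 ± 0.10 (SE) and was not called (edgeR adjusted p = 0.936). Opposite map1, map1-antisense-1 was matched, at 22.9% of the mean CPM of map1 and with log2 fold changes against ntu_WT of 0.41 in ntu2_KO and -0.01 in wt_WT that were not called. The genes fil1, prr1, php3 and pho7 overlap no annotated gene on the opposite strand.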

How the data were processed

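The series measured poly(A)-selected RNA in 12 libraries. The submitters' processing notes name Salmon 1.9.0 and the build ASM294v2. The authors deposited estimated counts per gene and TPM values, which sum to 1e+06 per library. The use of strand in counting was not given in the sources used here.

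Estimated counts were rounded to whole numbers and tested with edgeR 4.0.16 (R 4.3.3; TMM, filterByExpr at a minimum count of 10, robust quasi-likelihood fit, Benjamini-Hochberg over all genes tested, 2-sided). Comparisons of the h+ groups used a fit of 9 libraries and 5808 genes, and those with wt_WT used a fit of 12 libraries and 5899 genes. CPM uses TMM-scaled library sizes of all 12. SE is the log2 fold change divided by the square root of F, and intervals are 95%. The procedure was tested on simulated data.

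The members, the target lists and the role groups were chosen with earlier results of these data known. Named were the deleted genes, every called member, the 5 highest and 5 lowest by TPM, the 5 widest in range and up to 3 called genes per list and comparison; other genes were named after their values were seen. Alternatives were DESeq2 size factors, DESeq2 1.42.0, no count filter, limma 3.58.1 on log2(TPM + 1) for mean TPM of at least 1, on log2(TPM + 0.1) and without filter, other libraries in the fit, a replicate block, a 2-fold minimum, adjusted p under 0.01, and each library left out. Annotation from ASM294v3, another build, was used only for names, chromosomes, neighbours and overlaps, so no coordinates or sequences are given. Libraries of 1 group differed beyond sampling noise, so none was a repeat deposit of another, and each was counted in n. This does not show separate cultures. The library farthest from its group was ntu1_KO replicate 1, which also had the 6.64% of ribosomal RNA. Its chi-square per degree of freedom was 69.4 and 28.4 against replicates 2 and 3, beside 3.15 to 15.9 in the pairs without it.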

Additional observations from a re-analysis of the deposited data

How the results depend on the processing

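The numbers of factor genes called were 1, 2, 2, 8, 5 and 5 in ntu1_KO, ntu2_KO (each against ntu_WT), ntu1_KO against ntu2_KO, wt_WT against ntu_WT, and ntu1_KO and ntu2_KO against wt_WT. With the compared groups alone in the fit, the counts that moved by over 1.5 times were 2 (ntu1_KO), 1 (ntu2_KO) and 8 (ntu1_KO against wt_WT), and with all 12 libraries 2 (ntu1_KO) and 4 (ntu2_KO). DESeq2 gave 4 in ntu2_KO. Each of the 3 limma settings on log2 TPM gave 1 in ntu2_KO and 3 in ntu2_KO against wt_WT. In these settings the median log2 fold change of all genes lay up to 0.0861 to 0.0921 from 0, beside 0.00343 in the main fit. Its part in the calls lost or gained with limma was not tested. A 2-fold minimum left 1 gene in ntu2_KO against ntu_WT and 1 in each comparison with wt_WT. An adjusted p under 0.01 left 1 in ntu2_KO, 5 in wt_WT against ntu_WT, and 3 in each knockout against wt_WT. Leaving out 1 library gave 1 to 1, 1 to 7, 2 to 2, 5 to 9, 3 to 6 and 3 to 8 calls in the order above. The highest counts of 7 and 8 both came without ntu2_KO replicate 3, when map1, mbx1, nrm1, sre2 and zip1 joined the calls against ntu_WT. The lowest of 1 in ntu2_KO against ntu_WT came without any 1 of ntu_WT replicates 2 and 3 and ntu2_KO replicates 1 and 2. The count of 5 in wt_WT came without ntu_WT replicate 2. That of 3 came in ntu1_KO against wt_WT without ntu1_KO replicates 2 or 3 or any 1 wt_WT library, and in ntu2_KO against wt_WT without ntu2_KO replicate 2 or wt_WT replicates 1 or 3. The cause of these shifts was not tested, except that the stricter rules pass fewer genes by construction and a left-out library leaves fewer samples.

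Replicate numbers did not pair the samples, with a correlation of same-numbered libraries of -0.165 to 0.118 and 0 of 12 libraries closest to one of its own number. With the replicate number as a block, 1, 3, 2, 8, 5 and 5 factor genes were called.

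The 218 fold changes examined for single genes, 121 of them called, were those of named genes with an unadjusted edgeR p under 0.05. Over these, 3127 alternatives other than the stricter call rules gave 2670 values on the same side of the threshold. A further 380 lost it, 77 gained it and 0 changed direction. Fold changes chosen by that p seldom change direction, so the last count was largely set by the choice. Depth limits the low genes: atf31, grt1, map1, mbx2 and mei4 averaged under 10 TPM, and rsv1 and atf21 could not be tested.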

Other observations

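For mbx2, pfl8 and isp4 the largest differences were those from ntu_WT, and edgeR called none between either knockout and wt_WT. In wt_WT and both knockouts the factor gene mbx2 was 20.2 to 25.8 CPM, below the 30.3 to 32.9 of ntu_WT, and between each knockout and wt_WT its log2 difference was -0.09 (95% interval -0.34 to 0.15) in ntu1_KO and -0.13 (-0.38 to 0.12) in ntu2_KO. The flocculin gene pfl8 differed between the knockouts and wt_WT by 0.12 ± 0.12 and 0.06 ± 0.12, and isp4 by 0.07 ± 0.11 and 0.29 ± 0.12, none of them called by edgeR. Without ntu2_KO replicate 3 the isp4 difference of ntu2_KO from wt_WT was 0.42 and was called (adjusted p = 0.0294). These 3 comparisons with ntu_WT share its 3 libraries. By contrast esc1 and fil1 stood apart in wt_WT alone. SPNCRNA.1626 was lowest in ntu_WT and highest in wt_WT, with both knockouts between them. The knockouts were below wt_WT by log2 differences of -0.998 and -0.77 (edgeR adjusted p = 3.88e-07 and 1.49e-05). Between ntu1_KO and ntu2_KO its log2 difference was -0.23 (95% interval -0.455 to -0.00638) and was not called (edgeR adjusted p = 0.736).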
